A study of Homo sapiens with 6 samples.

Results

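The genes described here encode subunits of cohesin and condensin and the cohesin acetyltransferases. They are SMC1A, SMC3, RAD21, STAG1 and STAG2 of cohesin, ESCO1 and ESCO2, and SMC2, SMC4 and NCAPD2 of condensin. They were chosen by symbol, as the probe sets whose platform annotation names exactly 1 gene and that gene is on the list. All 10 genes of the list had such a probe set, 1 each, among 18404 named genes in the table of 32321 probe sets. No filter on dim genes was applied, so no member was lost to one. The members, and the gene lists used below, were chosen with earlier results of these data known. Their counts beside those of all genes are therefore no independent support.

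RNA came from H226, a human lung squamous carcinoma line that here carried a doxycycline-inducible shRNA against p63 (shp63), a transcription factor of squamous epithelia from the p53 family. It was hybridised to 6 arrays (Affymetrix HuGene 1.0 ST) in 3 groups of 2. Control cells were shp63 OFF in normal growth and untreated. Nutlin-3 cells were shp63 OFF and received 10 µM Nutlin-3, an MDM2 inhibitor that activates p53, for 12 h. In the shp63 ON group the shRNA was switched on by doxycycline at 1 µg/mL over 48 h, as the treatment protocol has it. The treatment label of the same arrays reads untreated, so the doxycycline is taken from the protocol and the shRNA label. All cells were plated in serum-containing RPMI medium, and all carried the shRNA. Only that group had doxycycline, and no array held another shRNA or doxycycline by itself, so effects of the drug, of the shRNA and of the length of treatment cannot be told apart. The gene targeted by the shRNA was not analysed here. The labels do not say whether replicates came from separate cultures, so p-values measure only the spread between these arrays, which may be technical.

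Cohesin is a ring of SMC1A, SMC3 and RAD21, with STAG1 or STAG2 attached, that holds sister chromatids together from replication until anaphase and also shapes chromatin loops in interphase. ESCO1 and ESCO2 acetylate SMC3 and so secure the ring. ESCO2 acts at replication forks and is made mainly in S phase, whereas ESCO1 is present throughout the cell cycle. Condensin is built on the SMC2 and SMC4 pair and compacts chromosomes for mitosis, with NCAPD2, NCAPH and NCAPG completing condensin I and NCAPD3, NCAPH2 and NCAPG2 completing condensin II.

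Values are log2 intensities as the authors deposited them, with array medians of 6.57 to 6.70. Levels are compared for a gene between arrays and not between genes, whose probes differ. Replicate arrays correlated across genes at r = 0.997 to 0.998, and arrays of different groups at 0.975 to 0.989. Among squamous markers, keratin 5 (KRT5) read 11.87 to 12.39 and keratin 14 (KRT14) 10.07 to 10.49 over the 6 arrays, while the transcription factor SOX2 read 5.69 to 5.79, below every array median. Of 6 measured squamous markers, 2 rose and none fell with Nutlin-3, and 1 rose and 3 fell in shp63 ON. The desmosomal cadherin DSG3 was among them, with log2 fold changes of 2.03 and −0.73. Of 4 mesothelial markers, mesothelin (MSLN) read 9.76 to 10.09, and WT1, CALB2 and LRRN4 read 5.76 to 6.44, below every array median. Mean levels over the 6 arrays ran from 5.81 to 6.31 for 4 alveolar markers, 4.92 to 5.30 for 4 leukocyte, 5.50 to 5.65 for 5 fibroblast and 5.63 to 6.04 for 5 endothelial markers. Within these, the leukocyte gene PTPRC read 4.24 to 4.48 and CD14 5.93 to 6.92, the fibroblast gene DCN 3.94 to 4.05 and COL1A1 8.18 to 8.40, and the endothelial cadherin CDH5 8.07 to 9.21. Of 22 measured markers of alveolar, mesothelial, leukocyte, fibroblast and endothelial cells, 1 rose and 2 fell with Nutlin-3, where 9.64% of all genes rose and 8.89% fell, and 9 rose and none fell in shp63 ON, where 19.7% rose and 16.5% fell. The part of these markers in the results was not tested. Of a list of 24 proliferation genes, 23 fell and none rose with Nutlin-3, and 24 fell in shp63 ON (limma, Benjamini-Hochberg adjusted p under 0.05). Their mean log2 level was 8.76 and 8.85 in control, 7.67 and 7.56 with Nutlin-3, and 7.19 and 7.13 in shp63 ON. Between the treated groups, 13 of the 24 were lower and 7 higher in shp63 ON, against 24% lower and 27.5% higher over all genes. The part that cell cycle distribution played in the results was not tested. In bulk RNA, fewer cells that express a gene and less RNA per cell cannot be told apart.

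Promoter sequence is shown for the 3 condensin genes and SMC3, because these 4 hold the letters of the cell cycle homology region, TTTGAA, a motif known from promoters of genes expressed late in the cell cycle; the windows were picked for these matches. RefSeq windows of 300 bases (GRCh38.p14, 250 before to 50 after a transcription start) covered 7 of the 10 genes with 12 windows. RAD21, ESCO1 and ESCO2 had no entry. Each line below runs 5′ to 3′ on the plus strand, which is the gene's strand, from position −210 to 10 around the start. Capitals mark TTTGAA, the CCAAT box (CCAAT) and 3 E2F-type forms (TTGGCGC, then TTCGCGC, then TTCCCGC) on either strand, so that TTCAAA is TTTGAA and ATTGG is CCAAT read on the other strand.
SMC3 (chr10:110567485-110567704): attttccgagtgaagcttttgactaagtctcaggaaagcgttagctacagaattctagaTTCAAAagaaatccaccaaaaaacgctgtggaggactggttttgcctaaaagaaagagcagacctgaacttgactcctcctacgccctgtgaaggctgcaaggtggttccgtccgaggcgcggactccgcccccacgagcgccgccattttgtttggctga
SMC2 (chr9:104094099-104094318): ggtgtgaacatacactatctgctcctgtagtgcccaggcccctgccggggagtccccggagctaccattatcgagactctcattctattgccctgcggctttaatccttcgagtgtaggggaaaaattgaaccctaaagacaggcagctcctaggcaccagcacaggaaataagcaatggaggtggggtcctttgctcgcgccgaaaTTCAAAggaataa
SMC4 (chr3:160399440-160399659): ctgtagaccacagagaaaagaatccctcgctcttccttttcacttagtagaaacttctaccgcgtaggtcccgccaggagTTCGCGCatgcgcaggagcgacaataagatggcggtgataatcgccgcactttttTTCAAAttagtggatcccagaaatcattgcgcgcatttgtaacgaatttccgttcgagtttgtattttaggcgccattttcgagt
NCAPD2 (chr12:6493892-6494111): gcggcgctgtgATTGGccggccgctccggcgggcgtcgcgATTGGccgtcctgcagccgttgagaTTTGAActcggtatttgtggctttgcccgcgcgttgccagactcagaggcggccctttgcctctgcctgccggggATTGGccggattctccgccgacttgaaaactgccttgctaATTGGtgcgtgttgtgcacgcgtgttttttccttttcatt

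In these windows TTTGAA began at position −151 in SMC3, −3 in SMC2, −75 in SMC4 and −145 in NCAPD2. It was in 4 of the 7 genes, against 18.2% of 27305 genes with a window. SMC2 and SMC4 each have a further window, and neither holds it. NCAPD2 holds 4 CCAAT boxes, at −199, −170, −70 and −30. The CCAAT box was in 3 of the 7 genes (NCAPD2, STAG1 and STAG2), against 39.7% of all genes. One of the E2F-type forms was in 4 of the 7 (SMC1A, SMC4, STAG1 and STAG2), against 13.1%, and in SMC4 it began at −130. No match in a window overlapped a match of another motif. These are matches of letters in fixed windows and show nothing about binding.

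With Nutlin-3, ESCO2, the condensin pair SMC2 and SMC4 and the cohesin ring genes SMC1A, SMC3 and RAD21 fell, in estimates that ran from −1.70 for ESCO2 to −0.37 for SMC1A on the log2 scale, and the STAG genes, ESCO1 and NCAPD2 did not pass. Of the 10 genes 6 fell and none rose. Over all genes tested, 18.5% passed in limma, 8.89% as lower and 9.64% as higher. Median centring of the arrays moved the split over all genes from 1774 higher and 1636 lower to 2609 higher and 1062 lower, while the members' count stayed at 6 lower. The median log2 fold change was −0.38 over the 10 genes and −0.0025 over all genes. Every member read lower on both Nutlin-3 arrays than on both control arrays, as did 30.3% of all genes.

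ESCO2, the replication-linked acetyltransferase, read 8.10 and 8.20 on the control arrays and 6.48 and 6.43 with Nutlin-3. Both treated arrays thus lay far below both controls, with replicates of each group within 0.10 of each other. The fall was 3.25-fold (log2 fold change −1.70, SE 0.07, limma Benjamini-Hochberg adjusted p = 9.3e-06, n = 2 each), the 30th lowest change of 18404 genes. Its paralog ESCO1 read 7.59 and 7.58 in control and 7.46 and 7.55 with Nutlin-3. The groups of ESCO1 did not overlap, but the difference did not pass (log2 fold change −0.08, 95% interval −0.28 to 0.12, adjusted p = 0.563).

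The condensin ATPase subunit SMC2 read 8.06 and 7.96 in control against 7.20 and 7.10 with Nutlin-3, a fall of 1.82-fold (log2 fold change −0.86, SE 0.07, limma adjusted p = 0.00022). Its partner SMC4 went from 9.01 and 8.95 to 8.48 and 8.36 (log2 fold change −0.56, SE 0.08, limma adjusted p = 0.0023). Both treated arrays lay below both controls for each subunit of the pair. NCAPD2, which belongs to condensin I alone, read 9.28 and 9.39 in control and 9.23 and 9.08 with Nutlin-3 and did not pass (log2 fold change −0.18, 95% interval −0.37 to 0.01, limma adjusted p = 0.176).

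In the cohesin ring, SMC3, the subunit that ESCO1 and ESCO2 acetylate, went from 9.66 and 9.64 to 9.29 and 9.09 (log2 fold change −0.46, SE 0.08, limma adjusted p = 0.0070). SMC1A, its ATPase partner, went from 9.03 and 9.01 to 8.62 and 8.67 (log2 fold change −0.37, SE 0.06, limma adjusted p = 0.0065). RAD21, the kleisin that separase cuts at anaphase, went from 10.07 and 10.02 to 9.72 and 9.58 (log2 fold change −0.39, SE 0.08, limma adjusted p = 0.0111). The 95% intervals of the 3 ring genes, the widest from −0.65 to −0.28, overlapped. STAG1 read 8.08 and 8.15 in control and 7.84 and 7.94 with Nutlin-3 (log2 fold change −0.22, 95% interval −0.38 to −0.07, limma adjusted p = 0.0586). STAG2 read 8.86 and 8.90 against 8.81 and 8.75 (log2 fold change −0.10, 95% interval −0.26 to 0.05, limma adjusted p = 0.339). Neither STAG gene passed, although their groups did not overlap. STAG1 passed as lower under 1 of 15 alternatives, with only genes of mean log2 intensity of at least 6 (limma adjusted p = 0.0347). Without control replicate 1 the members that passed numbered 3 rather than 6, with SMC1A (limma adjusted p = 0.0553, range over 15 alternatives 0.0011 to 0.0553), SMC3 (0.0562, range 0.00062 to 0.0899) and RAD21 (0.0847) lost. RAD21 was also lost without control replicate 2 (limma adjusted p = 0.0518) and without nutlin replicate 2 (limma adjusted p = 0.0538), against a range of 0.00096 to 0.0959.

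**Figure D1:**
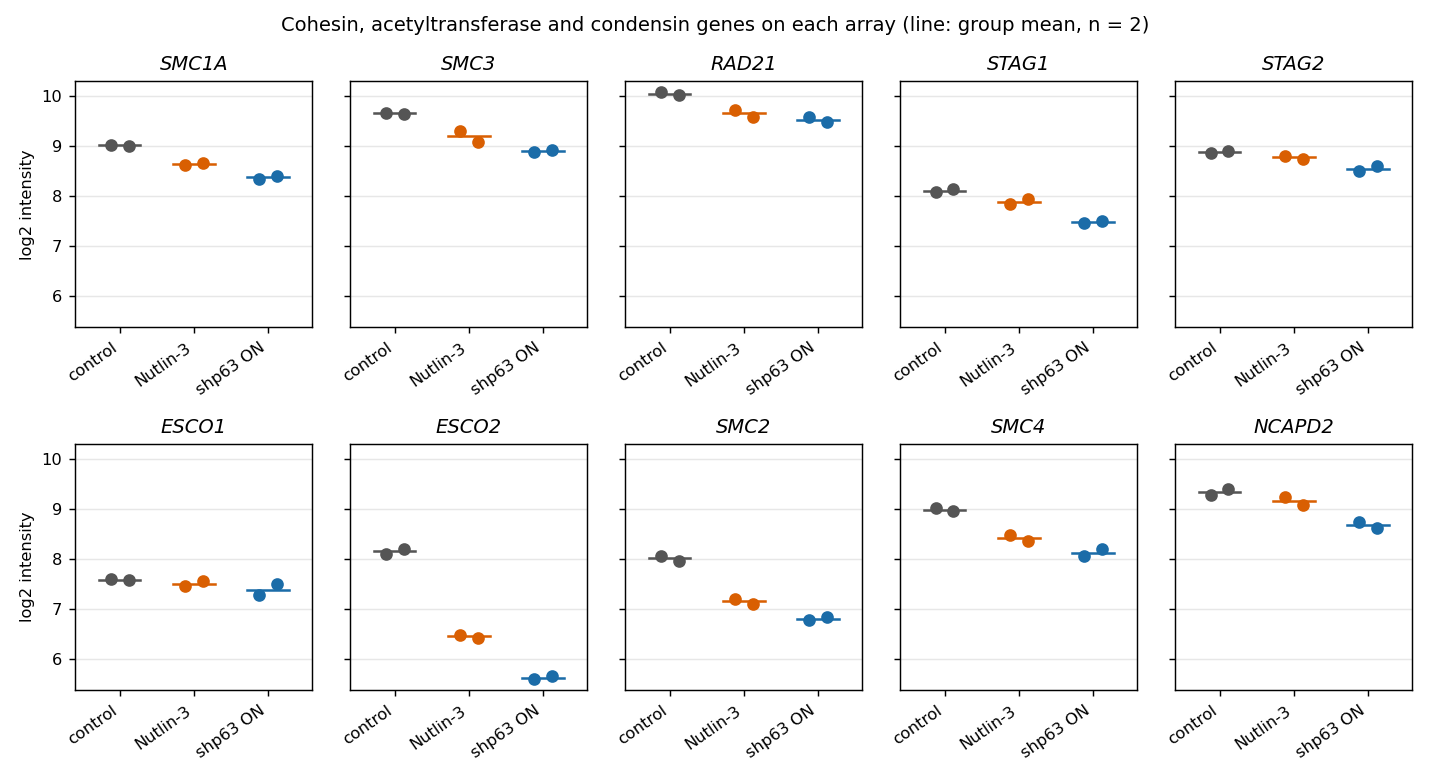
Log2 intensity of the 10 genes on each of the 6 arrays, with 1 point per array and a line at the mean of the 2 arrays of a group (control, Nutlin-3, shp63 ON). ESCO2 runs from 8.20 on a control array down to 5.60 in shp63 ON, whereas ESCO1 stays between 7.28 and 7.59.

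With shp63 ON, all 10 genes read lower than in control and 9 passed, ESCO1 being the exception. ESCO2 again had the largest estimate of the 10, followed by SMC2 and SMC4, and the estimates of SMC3, NCAPD2, SMC1A and STAG1 lay between −0.75 and −0.63. In limma 36.2% of all genes passed in this comparison, 16.5% as lower and 19.7% as higher. Median centring moved the split over all genes from 3634 higher and 3036 lower to 2418 higher and 3854 lower, and then all 10 members passed as lower. The median log2 fold change was −0.65 over the 10 genes and 0.04 over all genes. All 10 genes had both shp63 ON arrays below both control arrays, as had 30.4% of all genes. This comparison uses the same control arrays as the one with Nutlin-3, so the values stand side by side and do not support each other.

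ESCO2 read 5.60 and 5.65 with shp63 ON, against 8.10 and 8.20 in control. It fell 5.76-fold (log2 fold change −2.53, SE 0.07, limma adjusted p = 4.5e-06), the 8th lowest change of 18404 genes. Both arrays lay below the array median, where intensities can understate a change. The Nutlin-3 arrays, at 6.48 and 6.43 for ESCO2, lay just below their medians of 6.57, so the same limit holds there. ESCO1 read 7.28 and 7.49 and did not pass (log2 fold change −0.20, 95% interval −0.39 to −0.002, limma adjusted p = 0.103). It passed as lower after median centring and without shp63_on replicate 2.

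Of the condensin genes, SMC2 read 6.77 and 6.84 (log2 fold change −1.20, SE 0.07, limma adjusted p = 3.9e-05) and SMC4 8.06 and 8.19 (log2 fold change −0.86, SE 0.08, limma adjusted p = 0.00024). NCAPD2 read 8.74 and 8.62, below its control values of 9.28 and 9.39 (log2 fold change −0.66, SE 0.08, limma adjusted p = 0.0011). All 3 condensin genes were therefore lower in shp63 ON, by 2.30-fold, 1.81-fold and 1.58-fold in this order.

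The cohesin ring genes fell as well, with log2 fold changes of −0.75 for SMC3, −0.64 for SMC1A and −0.52 for RAD21 and limma adjusted p-values of 0.00051, 0.00037 and 0.00215. SMC3 read 8.89 and 8.91, SMC1A 8.35 and 8.41, and RAD21 9.58 and 9.48. The STAG genes, whose products are alternative subunits of cohesin, both passed here. STAG1 read 7.47 and 7.50 (log2 fold change −0.63, SE 0.07, limma adjusted p = 0.00053), and STAG2 8.50 and 8.60 (log2 fold change −0.33, SE 0.07, limma adjusted p = 0.0085). The call of STAG2 was lost without control replicate 2 (limma adjusted p = 0.0574) and without shp63_on replicate 1 (limma adjusted p = 0.0516), over a range of 0.0021 to 0.0574.

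**Figure D2:**
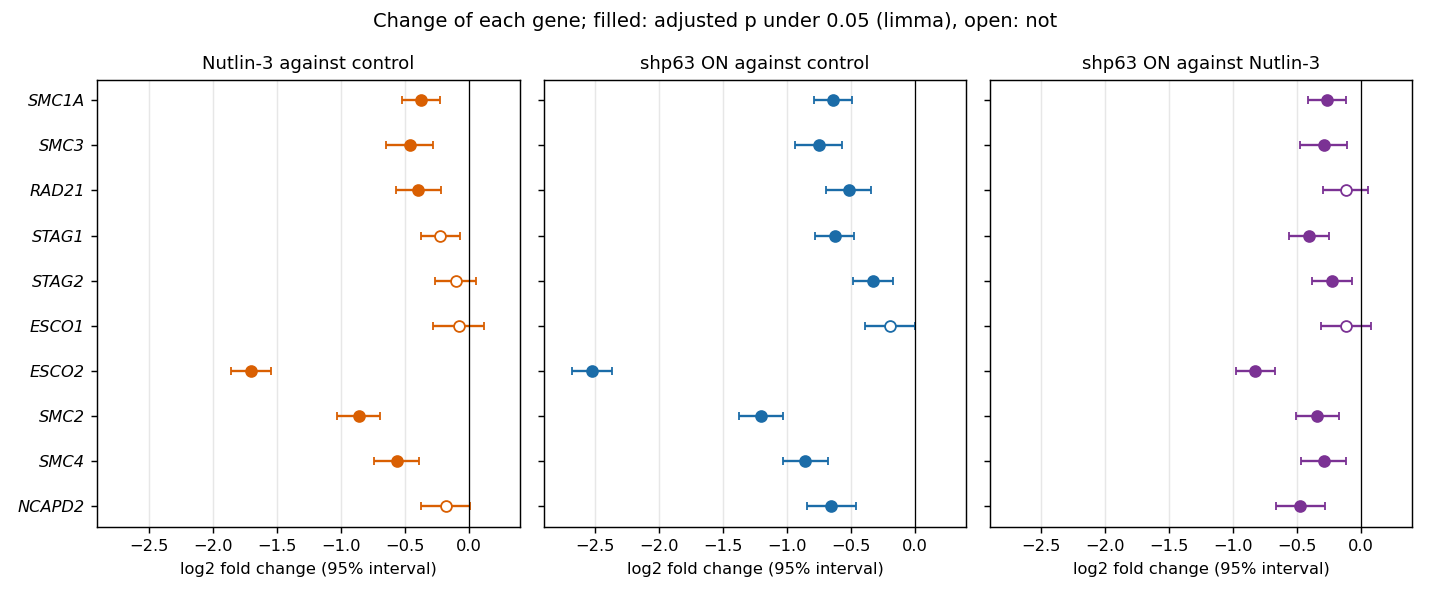
Log2 fold change of each gene with its 95% interval (limma, n = 2 arrays per group) in 3 panels, which set each treated group against control and then the treated groups against each other. Filled points have an adjusted p under 0.05 and open points do not, and ESCO2 lies apart from the others at −1.70 and −2.53 against control.

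Set directly against each other, the treated groups differed in 8 of the 10 genes, all lower in shp63 ON than with Nutlin-3. In this comparison 51.5% of all genes passed in limma, 24% as lower and 27.5% as higher. ESCO2 differed most (log2 fold change −0.83, SE 0.07, limma adjusted p = 8.4e-05), followed by NCAPD2 (−0.48, SE 0.08, adjusted p = 0.0023) and STAG1 (−0.41, SE 0.07, adjusted p = 0.0018). SMC2 (−0.34, SE 0.07), SMC4 (−0.29, SE 0.08), SMC3 (−0.29, SE 0.08), SMC1A (−0.27, SE 0.06) and STAG2 (−0.23, SE 0.07) also passed in limma. For RAD21 the log2 fold change was −0.12 (95% interval −0.30 to 0.05, limma adjusted p = 0.212), and for ESCO1 −0.12 (95% interval −0.31 to 0.08, limma adjusted p = 0.271). Of the 10 genes, 9 had both shp63 ON arrays below both Nutlin-3 arrays, against 35.7% of all genes, and ESCO1 overlapped. The time of exposure also differed, 48 h against 12 h.

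Only ESCO2, SMC2, STAG1 and NCAPD2 kept this direct difference past the threshold under all 15 alternatives. After quantile normalization 4 of the 10 members passed, all as lower. Over all 18404 genes 8685 then passed, 3818 as lower and 4867 as higher. After cyclic loess normalization 6 passed, with SMC3 (limma adjusted p = 0.0723) and STAG2 (0.0982) lost. Members that passed were also fewer without shp63_on replicate 1 and without nutlin replicate 1. Without shp63_on replicate 1 the limma adjusted p was 0.0511 for SMC1A, 0.0750 for SMC3, 0.0815 for SMC4 and 0.126 for STAG2. Without nutlin replicate 1 it was 0.0816 for SMC3, 0.0699 for SMC4 and 0.0975 for STAG2, and without shp63_on replicate 2 it was 0.0548 for SMC3. Over the alternatives it ranged from 0.0015 to 0.0783 for SMC1A, 0.0033 to 0.100 for SMC3, 0.0024 to 0.0815 for SMC4 and 0.0035 to 0.175 for STAG2. Median centring moved the median of all genes from 0.026 to −0.097, turned the split over all genes from 5057 higher and 4424 lower to 3314 higher and 6565 lower, and made all 10 members pass as lower. NCAPD2, STAG1 and STAG2 did not pass with Nutlin-3, STAG1 narrowly (limma adjusted p = 0.0586), and passed as lower in shp63 ON against either other group.

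Differences between partners on the same array are free of a shift of the whole array. Relative to their control mean, ESCO2 minus ESCO1 was −1.55 and −1.69 with Nutlin-3 and −2.25 and −2.41 in shp63 ON, against −0.05 and 0.05 in control. The 2 acetyltransferase genes therefore changed unequally on every treated array. SMC4 minus SMC2 was 0.31 and 0.29 with Nutlin-3 and 0.32 and 0.37 in shp63 ON, against −0.02 and 0.02 in control, so SMC2 was the lower of the pair relative to control on all 4 treated arrays. STAG1 minus STAG2 was −0.20 and −0.04 with Nutlin-3 and −0.26 and −0.34 in shp63 ON, with −0.02 and 0.02 in control. SMC3 minus SMC1A was 0.04 and −0.21 with Nutlin-3, above and below the control values, and −0.10 and −0.13 in shp63 ON. These 4 pairs were not tested by a model, and an exact two-sided permutation test of 2 arrays against 2 cannot give a p below 0.333.

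Most condensin subunits outside the list passed as lower too. Of 5 subunits, 5 fell with Nutlin-3 (median log2 fold change −0.84) and 4 fell in shp63 ON (median −1.56), beside medians of −0.56 and −0.86 for SMC2, SMC4 and NCAPD2. Over all genes 8.89% fell with Nutlin-3 and 16.5% in shp63 ON. The condensin I kleisin NCAPH fell in both, with log2 fold changes of −1.36 (SE 0.06) with Nutlin-3 and −1.83 (SE 0.06) in shp63 ON, and NCAPG, its HEAT-repeat partner, with −1.22 (SE 0.12) and −2.13 (SE 0.12). In condensin II, NCAPD3 had −0.83 (SE 0.07) and −1.40 (SE 0.07), and NCAPG2 −0.84 (SE 0.08) and −1.56 (SE 0.08). On the shp63 ON arrays NCAPH, NCAPG and NCAPG2 read 5.5 to 6.5, below the array medians, where intensities can understate a change. The condensin II kleisin NCAPH2 differed from the other 4 subunits. It fell with Nutlin-3 (log2 fold change −0.36, SE 0.09, limma adjusted p = 0.0315), and stood at 0.09 (95% interval −0.11 to 0.30) in shp63 ON. Its difference between shp63 ON and Nutlin-3 passed (log2 fold change 0.45, SE 0.09, limma adjusted p = 0.0043). The fall with Nutlin-3 was lost under 6 of 15 alternatives, among them without control replicate 1 (limma adjusted p = 0.158), control replicate 2 (0.109) and nutlin replicate 2 (0.128), over a range of 0.0191 to 0.171.

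Among 6 genes that load, hold or release cohesin, 2 fell with Nutlin-3 and 4 in shp63 ON, where 8.89% and 16.5% of all genes fell, and none rose. CDCA5, or sororin, which binds acetylated cohesin and blocks its release, fell in both (log2 fold change −1.91, SE 0.11, with Nutlin-3 and −1.99, SE 0.11, in shp63 ON). Its treated values of 5.8 to 6.2 lay below the array medians, where intensities can understate a change. PDS5B, a scaffold for both release and protection, also fell in both (−0.39 and −0.47, SE 0.06 each). Its paralog PDS5A (log2 fold change −0.37, SE 0.07) and the release factor WAPL (−0.31, SE 0.07) passed in shp63 ON, and had −0.14 and −0.05 with Nutlin-3. The loader genes NIPBL and MAU2 passed in neither comparison, with log2 fold changes of 0.06 and 0.17 with Nutlin-3 and −0.11 and 0.16 in shp63 ON. The call of PDS5B with Nutlin-3 was lost without control replicate 2 (limma adjusted p = 0.0520, range 0.0013 to 0.0520). That of WAPL in shp63 ON was lost without control replicate 1 (limma adjusted p = 0.0510), control replicate 2 (0.0624) or shp63_on replicate 1 (0.0601), over a range of 0.0022 to 0.0624.

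Among 5 genes that protect or end cohesion, 3 fell and 1 rose with Nutlin-3, and 4 fell in shp63 ON, against 8.89% lower, 9.64% higher and 16.5% lower over all genes. The centromeric protector SGO1 fell in both (log2 fold change −1.51 with Nutlin-3 and −1.98 in shp63 ON, SE 0.11 each), as did SGO2 (−0.47 and −1.23, SE 0.09 each). Separase, ESPL1, which cuts RAD21, fell in both (−0.56 and −0.51, SE 0.08 each). Securin, PTTG1, which inhibits separase, had a log2 fold change of 0.11 (95% interval −0.07 to 0.29) with Nutlin-3 and fell in shp63 ON (−1.50, SE 0.08), and its difference between these groups passed (log2 fold change −1.61, SE 0.08, limma adjusted p = 1.1e-05). PTTG1 has close copies in the genome, which its probe set may also read. In shp63 ON, PTTG1 and SGO2 read 5.1 to 5.4, SGO1 6.0 to 6.3 and ESPL1 6.64 to 6.67. These values lay below the array medians, where intensities can understate a change. HDAC8, the deacetylase that resets SMC3, rose by 0.25 (SE 0.07, limma adjusted p = 0.0431) with Nutlin-3, but this call was lost under 11 of 15 alternatives, with each single array left out (limma adjusted p = 0.0560 to 0.209, and 0.0133 to 0.209 over all alternatives). It stood at 0.01 (95% interval −0.15 to 0.17) in shp63 ON. The fall of SGO2 with Nutlin-3 was lost without control replicate 1 (limma adjusted p = 0.0805), control replicate 2 (0.0520) or nutlin replicate 2 (0.0552), over a range of 0.0061 to 0.119.

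Of 7 measured factors that tie cohesion to the replication fork, 5 fell in each comparison with control, against 8.89% and 16.5% of all genes, and none rose. Claspin, CLSPN, had log2 fold changes of −2.54 with Nutlin-3 and −2.27 in shp63 ON (SE 0.08 each), and the clamp loader subunit DSCC1 −1.84 and −2.14 (SE 0.09 each). On the treated arrays CLSPN read 5.3 to 5.7 and DSCC1 5.2 to 5.6, below the array medians, where intensities can understate a change. WDHD1, which links helicase and polymerase, had −1.45 and −1.50 (SE 0.14 each), TIMELESS −0.72 and −0.97 (SE 0.07 each), and its partner TIPIN −0.60 and −0.73 (SE 0.10 each). In shp63 ON, WDHD1 and TIMELESS read 6.0 to 6.5, also below the array medians. CHTF18 and CHTF8, which share the clamp loader with DSCC1, passed in neither comparison (log2 fold changes of −0.19 and 0.09 with Nutlin-3, and −0.04 and −0.09 in shp63 ON). The call of TIPIN with Nutlin-3 was lost without control replicate 2 (limma adjusted p = 0.0528, range 0.0019 to 0.114).

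The SMC5/6 complex, the third of the SMC family and known for its role in DNA repair, had 1 rise and no fall among 7 genes with Nutlin-3 (median log2 fold change −0.06), and 4 falls and no rise in shp63 ON (median −0.22). The single rise is near the 9.64% of all genes that rose with Nutlin-3, and the falls stand against 16.5% in shp63 ON. The SUMO ligase NSMCE2 rose with Nutlin-3 (log2 fold change 0.40, SE 0.07, limma adjusted p = 0.0100), and this call was lost without control replicate 1 (limma adjusted p = 0.0778, range 0.0031 to 0.0903). In shp63 ON the ATPase subunits SMC6 (log2 fold change −0.74, SE 0.07) and SMC5 (−0.31, SE 0.09) and the non-SMC subunits NSMCE4A (−0.39, SE 0.09) and NSMCE1 (−0.22, SE 0.06) fell. The calls of SMC5, NSMCE4A and NSMCE1 were each lost when any 1 of control replicate 1, control replicate 2 or shp63_on replicate 1 was left out, with limma adjusted p-values of 0.108 to 0.131 for SMC5, 0.0619 to 0.0756 for NSMCE4A and 0.127 to 0.163 for NSMCE1. Over all alternatives these ranged from 0.0081 to 0.141, 0.0043 to 0.106 and 0.0138 to 0.163. Of 4 germline cohesin genes, none passed with Nutlin-3 in limma, and 1 rose in shp63 ON, STAG3 (log2 fold change 0.32, SE 0.07, limma adjusted p = 0.0128), where 19.7% of all genes rose. Its values were 5.76 to 6.19 in those groups, below the array medians, and the call was lost after cyclic loess normalization and without control replicate 2 (limma adjusted p = 0.0880) or shp63_on replicate 1 (0.0720), over a range of 0.0127 to 0.0880. Genes of the germline list at an unadjusted p under 0.05 with Nutlin-3 numbered 0. Between the treated groups 2 of the 4 were higher in shp63 ON, against 27.5% of all genes. They were STAG3 (log2 fold change 0.48, limma adjusted p = 0.0013) and REC8 (0.385, limma adjusted p = 0.0265), both below the array medians. The call of REC8 was lost under 6 of 15 alternatives, and that of STAG3 under none.

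**Figure D3:**
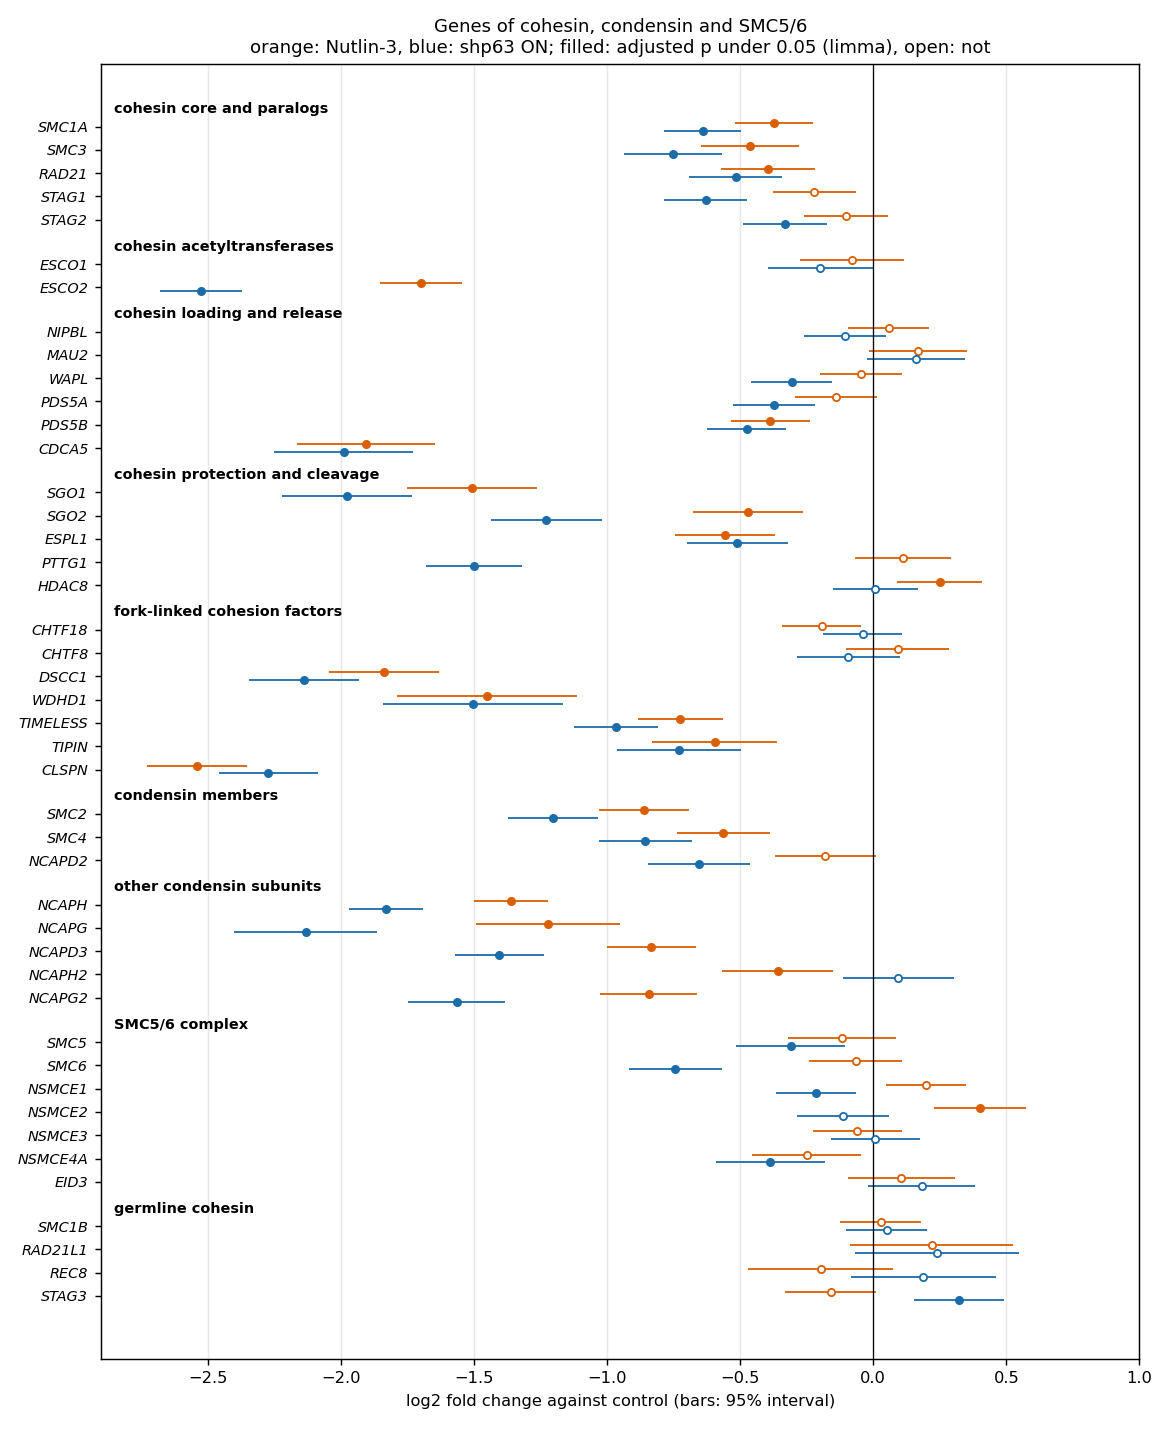
Log2 fold change against control of the genes of cohesin, condensin and SMC5/6, grouped by role, with 95% intervals (limma, n = 2 arrays per group). Nutlin-3 is orange and shp63 ON blue, filled points passed and open points did not. ESCO2, CDCA5, SGO1, DSCC1 and CLSPN lie between −2.54 and −1.51 in both comparisons, whereas NIPBL and MAU2 lie between −0.11 and 0.17.

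The genes whose 6 values, each less the control mean, lay nearest to those of ESCO2 were the histone genes H3C2 (root mean square difference 0.15 on the log2 scale) and H1-5 (0.18), the replication initiator TICRR (0.23), the spindle protein CKAP2L (0.25) and DSCC1 (0.25). H3C2 changed by −1.47 with Nutlin-3 and −2.50 in shp63 ON, and H1-5 by −1.58 and −2.69. Histone genes have near-identical copies, so their probe sets may also read other copies. TICRR changed by −2.00 and −2.30 against control and by −0.30 between the treated groups, where ESCO2 had −0.83. Nearest to SMC2 were the primase subunit PRIM2 (0.06), the nuclease DCLRE1B (0.07), the chromatin protein HMGB2 (0.07), the anaphase activator CDC20 (0.08) and the centromere protein CENPN (0.09). PRIM2 changed by −0.88 and −1.22, against −0.86 and −1.20 for SMC2. These are likenesses over 6 arrays that share 2 control arrays, with no test.

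**Figure D4:**
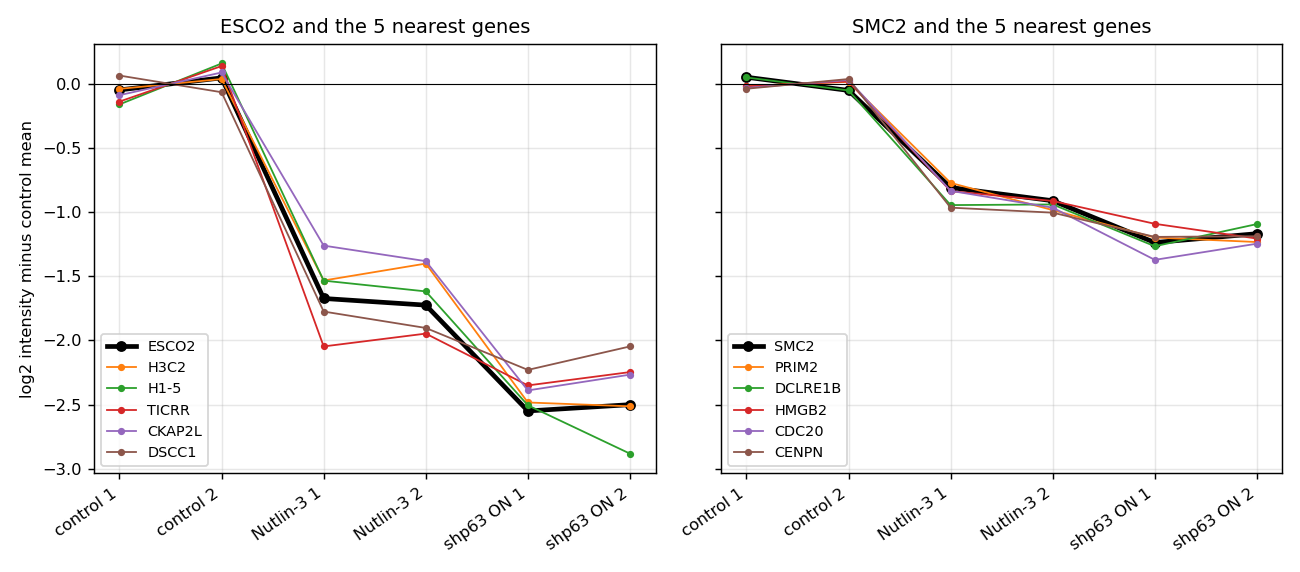
Log2 intensity less the control mean on each of the 6 arrays for ESCO2 (left, black) and SMC2 (right, black) and the 5 genes nearest to each by root mean square difference. The genes nearest to SMC2 lie within 0.09 of it on this measure, and those nearest to ESCO2 within 0.25.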

How the data were processed

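The authors deposited log2 probe set intensities of 6 arrays with like medians. That they are log2 values follows from their range, while background correction, normalization method and probe set summary are not stated in the labels or the design text. The submitters' processing notes name Partek, with no version, and the design text names an analysis of variance. Of 32321 probe sets, 19158 name 1 gene, which gave 18404 genes, with the probe set of highest mean used where there were several. No filter was applied. In limma 3.58.1 (R 4.3.3) the 6 arrays were modelled with a mean for each group (lmFit, eBayes, 3 residual degrees of freedom before moderation, no block). P-values were adjusted by Benjamini-Hochberg over all genes, and a gene passed at an adjusted p under 0.05. The fit was tested on simulated data. Promoter windows came from RefSeq (GRCh38.p14).

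The members and gene lists were chosen with earlier results of these data known. Text names all members, the called genes of the other cohesin, condensin, fork and SMC5/6 lists, and the 5 genes nearest to ESCO2 and to SMC2. Uncalled genes of those lists, and single marker genes, were also named, after their values were seen. Squamous markers KRT6A, KRT17 and TP63 and the fork gene DDX11 were not analysed here. Alternatives were other normalizations, a filter, probe set means, other variance models, a replicate block, 2-group fits and leaving out each array. Precision is limited by the number of arrays, which carry no read depth.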

Additional observations from a re-analysis of the deposited data

How the results depend on the processing

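Of 450 values for the 10 genes (30 results under 15 alternatives), 417 kept their direction and their side of the threshold, 27 were no longer past it, 5 came past it and 1 changed sign. ESCO2 and SMC2 passed as lower in all 3 comparisons under all 15 alternatives. The sign change was RAD21 in shp63 ON against Nutlin-3, at 0.0064 after quantile normalization. WAPL with Nutlin-3 (0.015) and HDAC8 in shp63 ON (−0.054) changed sign after median centring, and HDAC8 did so without control replicate 2 (−0.043) and without shp63_on replicate 2, with 0.059 the highest value with an array left out and 0.090 after quantile normalization, none of them past the threshold in either setting.

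By a one-way analysis of variance without moderation, with fewer degrees of freedom, the members that passed were 3 rather than 6 with Nutlin-3, 9 as before in shp63 ON, and 5 rather than 8 between the treated groups, and the genes that passed over all were 1236, 3003 and 6089 rather than 3410, 6670 and 9481. After quantile normalization 4 members and 8685 genes over all passed between the treated groups, and the cause was not tested. Leaving out 1 array at a time, with fewer arrays in each fit and the lone array of a group assumed to vary like the other groups, gave 3 to 6 members with Nutlin-3, 8 to 10 in shp63 ON and 4 to 8 between the treated groups. Genes that passed over all then numbered 1405 to 2991, 3454 to 6960 and 7356 to 8918, with the lowest counts without control replicate 1, control replicate 2 and shp63_on replicate 1, in this order. With the replicate block 6, 9 and 8 members and 3097, 6530 and 9405 genes passed. The labels number replicates but do not say that a number marks a shared culture or day. Differences between replicates correlated across genes at −0.06, −0.02 and 0.11 between the groups. With 1 such difference per group, these values cannot show whether the numbers pair the arrays.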
